A study of Homo sapiens with 12 samples.

Results

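The genes described here lie around ERBB2 on the long arm of chromosome 17, in the bands 17q12-q21 that hold the HER2 amplicon of SK-BR-3. They are 41 listed genes, from MLLT6 to SMARCE1, chosen by symbol and position with earlier results of these data known, out of 58735 genes measured in the series. In GRCh38 with the GENCODE 29 annotation they span chr17:38705542-40648864, a stretch of 1.94 Mb, and all 41 symbols were found in both deposited tables. ERBB2 was left out of the list. The mRNA was measured by RNA-seq in 4 groups of 3 libraries each, named as in the labels. SK-BR-3 is an established human HER2-positive breast cancer cell line. SK-EPI is a subline of it, made resistant to the anthracycline epirubicin by long stepwise exposure to rising doses, and neither of these groups received an siRNA. SK-EPI-siNC and SK-EPI-siBCRP are SK-EPI cells transfected for 48 h with a control siRNA or with an siRNA against BCRP, the drug transporter encoded by ABCG2. The resistant line is represented by a single derivation, and whether it was cloned is not given in the sources used here. The libraries were prepared in triplicates, with no statement on separate cultures, so the p-values measure only the spread between these libraries, which may be technical.

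A gene amplicon is a stretch of chromosome present in many extra copies in a tumour cell, and the genes within it are often transcribed in excess of genes present in the usual number. The HER2 amplicon carries ERBB2, the receptor tyrosine kinase targeted by trastuzumab, and close by GRB7, an adaptor that binds such receptors, STARD3, a cholesterol-binding protein of late endosomes, and MIEN1, a small membrane-associated protein. The flanking genes differ widely in function and include subunits of Mediator, the proteasome and the ribosome. DNA copy number was not analysed here. All values below are mRNA levels of bulk cultures, in which fewer cells that express a gene and less of its RNA in each cell cannot be told apart.

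The deposited values are FPKM, read counts scaled to the exon length of a gene and to the depth of the library, so that levels can be compared roughly between genes of different length. The length merges all annotated exons, 5979 bases for RPL23 and 18680 for SMARCE1, so levels and ranks between genes depend on the annotation. Each library held between 15830381 and 20545811 reads on genes. Between SK-EPI and SK-BR-3, 15823 genes had enough reads to be tested, and between SK-EPI-siBCRP and SK-EPI-siNC 16298 genes had. Genes were tested with limma on log2(FPKM + 1), and a gene is said to be upregulated or downregulated where its Benjamini-Hochberg adjusted p-value over all tested genes was under 0.05. A log2 fold change is the difference between group means on that scale, which understates the change of genes near or under 1 FPKM. Of 7 epithelial or luminal markers 6 had a mean of at least 1 FPKM in every group, while CDH1 was listed at 0 in the 3 SK-BR-3 libraries and stayed at or under 0.121 FPKM in the others. The fibroblast markers and the leukocyte markers, each summed, stayed at or under 1.96 FPKM. Among the luminal markers FOXA1 went from 70.3 to 76.3 FPKM in SK-BR-3 to 6.88 to 7.71 FPKM in SK-EPI and KRT19 from 1581 to 1719 FPKM to 498 to 519 FPKM, while KRT8 went from 733 to 793 FPKM to 870 to 928 FPKM and KRT18 from 349 to 367 FPKM to 578 to 614 FPKM. Of 3 endothelial markers only CDH5 exceeded 1 FPKM, and it rose from 6.61 to 6.88 FPKM in SK-BR-3 to 26.8 to 27.9 FPKM in SK-EPI, while PECAM1 and VWF stayed at or under 0.229 FPKM. The part of these differences in the results below was not tested.

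Most genes of the region had less mRNA in SK-EPI cells than in SK-BR-3 cells. Of the 41 genes 38 could be tested, and 27 were downregulated, 8 were upregulated and 3 (PIP4K2B, CWC25 and CACNB1) did not pass the test. Over all tested genes 37.0% were downregulated and 37.9% upregulated. A fall of at least 1 on the log2 scale was reached by 16 of the 38, against 6.53% of all tested genes, and a rise of that size by STAC2 alone, against 7.87% of all tested genes. The ranges of the 2 groups did not overlap for 29 genes that were lower and 7 that were higher in SK-EPI, against 38.3% and 39.4% of all tested genes. The median log2 fold change of the 38 genes was -0.80, that of all tested genes was 0.01, and that of 941 tested genes of chromosome 17 outside the interval was 0.08, of which 28.9% were downregulated. The untested genes were NEUROD2, a neuronal transcription factor, GSDMA, a gasdermin of skin, and CSF3, the cytokine G-CSF, all with at most 8 reads in any of these libraries. PNMT and IGFBP4 passed the filter on low values only through SK-BR-3, so that their direction was bound to the filter. Both are kept in the counts of downregulated genes and in the medians, here and for the stretches that hold them. With at least 1 FPKM required in every library, which neither reached, 23 of 32 genes were downregulated and 6 upregulated. Over all genes tested in that way, 4439 of 10380 were downregulated and 3592 upregulated.

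The fall was not even along the chromosome. In the centromere-side stretch from MLLT6 to STAC2, 6 of 12 genes were upregulated and 3 downregulated, with a median log2 fold change of 0.11. In the central stretch from FBXL20 to IKZF3, 10 of 11 tested genes were downregulated with a median of -1.14. In the distal stretch from GSDMB to SMARCE1, 14 of 15 tested genes were downregulated with a median of -1.29. Between MED1 and RARA, limits that were picked after the values had been seen and that enclose 0.953 Mb, 20 of 22 tested genes were downregulated, and the exceptions IKZF3 and RAPGEFL1 were upregulated. All 16 genes of that stretch with a mean of at least 10 FPKM over the 6 libraries were downregulated, with log2 fold changes from -2.10 to -0.82, and 15 of them by at least 1. Of the 4551 tested genes at or above this level 2317 were downregulated, 449 of them by at least 1, and the median was -0.14.

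**Figure D1:**
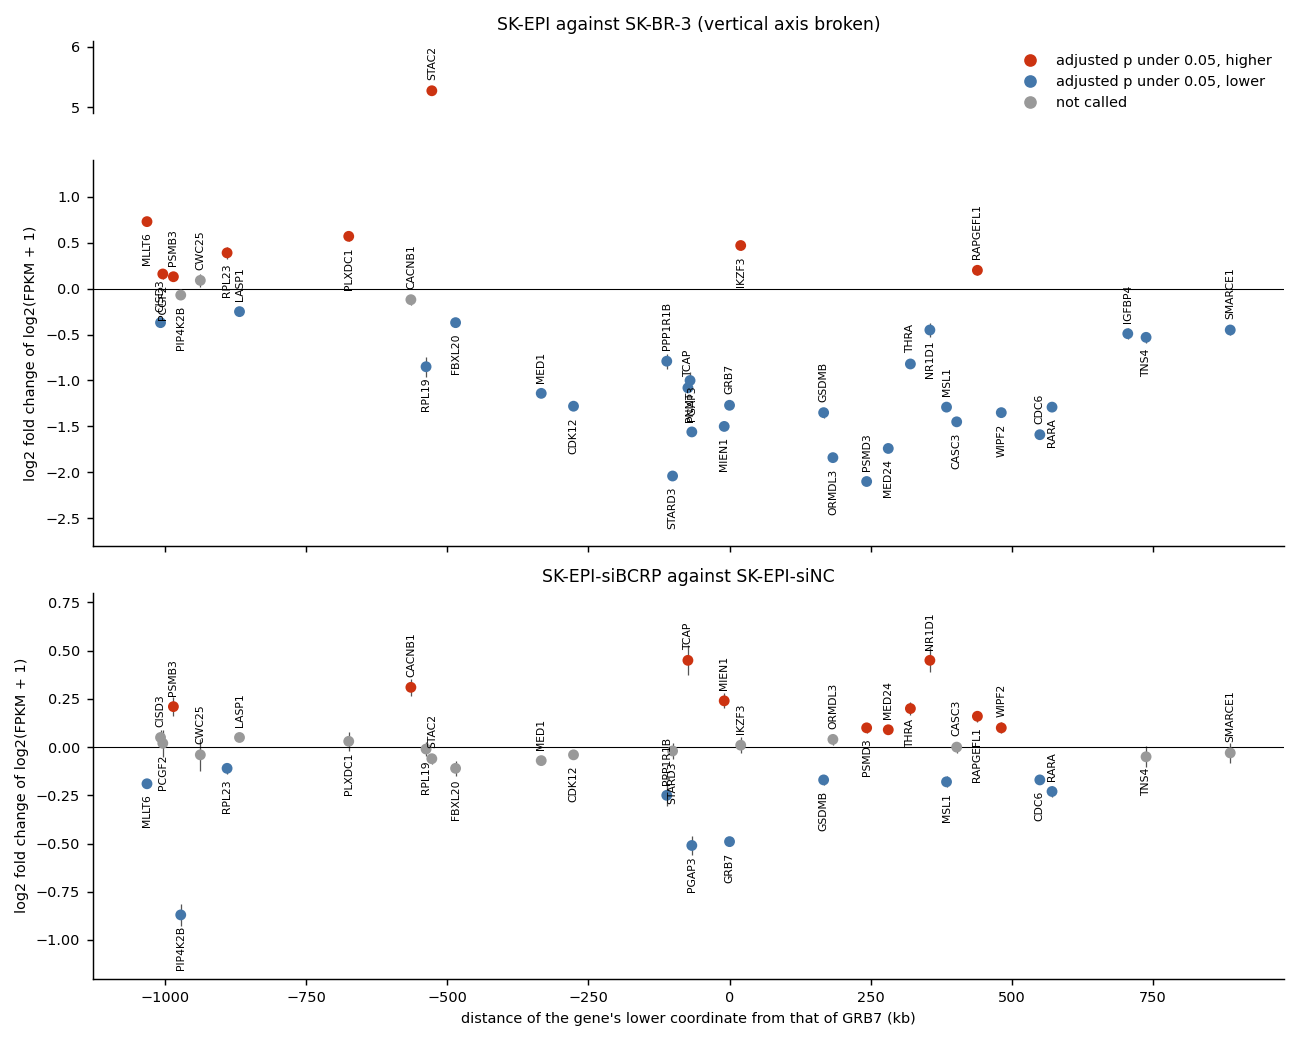
Log2 fold change of log2(FPKM + 1) of each tested gene of the region against the distance in kb of its lower coordinate from that of GRB7, for SK-EPI against SK-BR-3 (upper panels, vertical axis broken to show STAC2 at 5.27) and for SK-EPI-siBCRP against SK-EPI-siNC (lower panel), with bars of 1 SE and colours for the limma call. From MED1 to RARA the points of the upper panel lie between -2.10 and -0.45 except for IKZF3 and RAPGEFL1, while in the lower panel the points lie on both sides of 0 between -0.87 and 0.45.

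The 6 genes from STARD3 to GRB7, the core that flanks ERBB2, were all downregulated, with a median log2 fold change of -1.39. PNMT is among them, and its direction was bound to the filter. STARD3 had 120, 116 and 111 FPKM in the SK-BR-3 libraries and 27.8, 27.6 and 26.9 FPKM in the SK-EPI libraries. The SK-EPI mean was 23.7% of the SK-BR-3 mean, a log2 fold change of -2.04 (SE 0.035, limma adjusted p = 2.2e-09), and the groups were far apart. GRB7 (ENSG00000141738, chr17:39737927-39747291, plus strand) had 115, 114 and 106 FPKM in SK-BR-3 and 44.3, 45.5 and 46.8 FPKM in SK-EPI. Its level in SK-EPI was 40.8% of that in SK-BR-3, with a log2 fold change of -1.27 (SE 0.040). MIEN1 went from 123, 124 and 118 FPKM to 41.6, 41.6 and 44.0 FPKM, a log2 fold change of -1.50 (SE 0.036). These 3 genes had similar levels in SK-BR-3 but no longer in SK-EPI, where STARD3 was the lowest of them in every library. MIEN1 shares 24.9% of its exonic bases with ERBB2 on the opposite strand, and PGAP3 shares 5.29%. The treatment of strand in the counting is not given in the sources used here, so reads from such overlaps cannot be assigned to either gene. PGAP3, which remodels the lipid of GPI anchors, went from 61.4 to 64.1 FPKM in SK-BR-3 to 19.7 to 21.5 FPKM in SK-EPI, with a log2 fold change of -1.56.

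The remaining core genes are tissue-restricted and were expressed at low levels. TCAP, which encodes the sarcomeric protein telethonin, had 6.59, 6.39 and 6.53 FPKM in SK-BR-3 and 2.50, 2.53 and 2.59 FPKM in SK-EPI, a log2 fold change of -1.08. PNMT, the enzyme that makes adrenaline from noradrenaline, was covered by 26 to 39 reads in each SK-BR-3 library and by 2 to 6 in each SK-EPI library. It passed the filter only through SK-BR-3, so these reads are given without a share or a fold change. Just outside the core, PPP1R1B, which encodes the phosphatase inhibitor DARPP-32, fell to 41.9% of its SK-BR-3 mean with a log2 fold change of -0.79.

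On the centromere side of the core, CDK12, a kinase of elongating RNA polymerase II, had 157, 164 and 170 FPKM in SK-BR-3 and 66.7, 67.4 and 66.5 FPKM in SK-EPI, a log2 fold change of -1.28 (SE 0.035). MED1, a Mediator subunit that contacts nuclear receptors, had 138, 146 and 149 FPKM in SK-BR-3 and 64.5, 64.7 and 65.8 FPKM in SK-EPI, a log2 fold change of -1.14 (SE 0.036). Both remained the most abundant of their partner lists in SK-EPI, as described below. FBXL20, an F-box protein of ubiquitin ligases next to MED1, changed much less, from 14.7 to 16.0 FPKM to 11.3 to 12.3 FPKM, a log2 fold change of -0.37.

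In the distal stretch the falls were as large as in the core. PSMD3, a subunit of the 19S regulatory particle of the proteasome, had 220, 212 and 208 FPKM in SK-BR-3 and 46.5, 50.9 and 49.6 FPKM in SK-EPI. With 23.0% of the SK-BR-3 mean and a log2 fold change of -2.10 (SE 0.043, limma adjusted p = 5.1e-09), it had the lowest log2 fold change of the 38 tested genes. ORMDL3, a regulator of sphingolipid synthesis, went from 78.2, 77.4 and 74.9 FPKM to 19.99, 21.19 and 21.05 FPKM, a log2 fold change of -1.84 (SE 0.035). MED24, another Mediator subunit, went from 58.9, 62.5 and 60.8 FPKM to 17.2, 17.5 and 17.8 FPKM, a log2 fold change of -1.74 (SE 0.033). Together with STARD3 these 3 genes kept the smallest shares of their SK-BR-3 mean among the members with at least 10 FPKM, between 23.0% and 28.8%, and STARD3 lies on the other side of ERBB2 and GRB7.

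The other abundant distal genes kept between 32.5% and 54.3% of their SK-BR-3 mean. CDC6, which loads the replicative helicase at origins, had 80.3 to 83.7 FPKM in SK-BR-3 and 25.7 to 27.6 FPKM in SK-EPI, a log2 fold change of -1.59. GSDMB, a gasdermin that can form membrane pores, had 70.7 to 81.9 FPKM in SK-BR-3 and 28.5 to 29.9 FPKM in SK-EPI, a log2 fold change of -1.35. CASC3, of the exon junction complex, fell by 1.45 on the log2 scale, WIPF2, a partner of WASP proteins in actin assembly, by 1.35, and MSL1, a subunit of a histone acetyltransferase complex, by 1.29. RARA, the retinoic acid receptor alpha, had 37.8 to 39.1 FPKM in SK-BR-3 and 14.7 to 15.4 FPKM in SK-EPI, a log2 fold change of -1.29. An antisense gene, RARA-AS1, shares 11.8% of the exonic bases of RARA. THRA, the thyroid hormone receptor alpha, kept more of its level, with 18.3 to 20.4 FPKM in SK-BR-3 and 10.2 to 10.5 FPKM in SK-EPI, a log2 fold change of -0.82. THRA and NR1D1, which encodes the clock repressor REV-ERB alpha, overlap tail to tail, and 9.49% of the exonic bases of NR1D1 are shared.

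The distal genes NR1D1, TNS4 and SMARCE1 had smaller falls on the log2(FPKM + 1) scale, which compresses changes near 1 FPKM. NR1D1 fell by 0.45 and kept 67.9% of its SK-BR-3 mean, and TNS4, a focal adhesion protein of the tensin family, fell by 0.53 and kept 64.2%. SMARCE1, a subunit of SWI/SNF chromatin remodelers, also fell by 0.45 but kept 51.6%, a smaller share than THRA, and its log2 fold change was -0.86 with a pseudocount of 0.1 and -0.87 with voom on recovered reads. SMARCE1 had only 1.174 to 1.304 FPKM in SK-BR-3, and a protein-coding gene annotated on the same strand, AC073508.2, shares 19.8% of its exonic bases, so its level may be affected by how shared reads were counted. IGFBP4, a secreted binder of insulin-like growth factors, had 49 reads in the 3 SK-BR-3 libraries together and 1 read in the 3 SK-EPI libraries. Since it entered the test through the SK-BR-3 libraries, these reads are given without a fold change. RAPGEFL1, a protein related to exchange factors of Rap GTPases, was upregulated slightly between strongly downregulated neighbours, with 5.77, 5.50 and 5.27 FPKM in SK-BR-3 and 6.51, 6.54 and 6.36 FPKM in SK-EPI (log2 fold change 0.20, limma adjusted p = 0.00512).

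**Figure D2:**
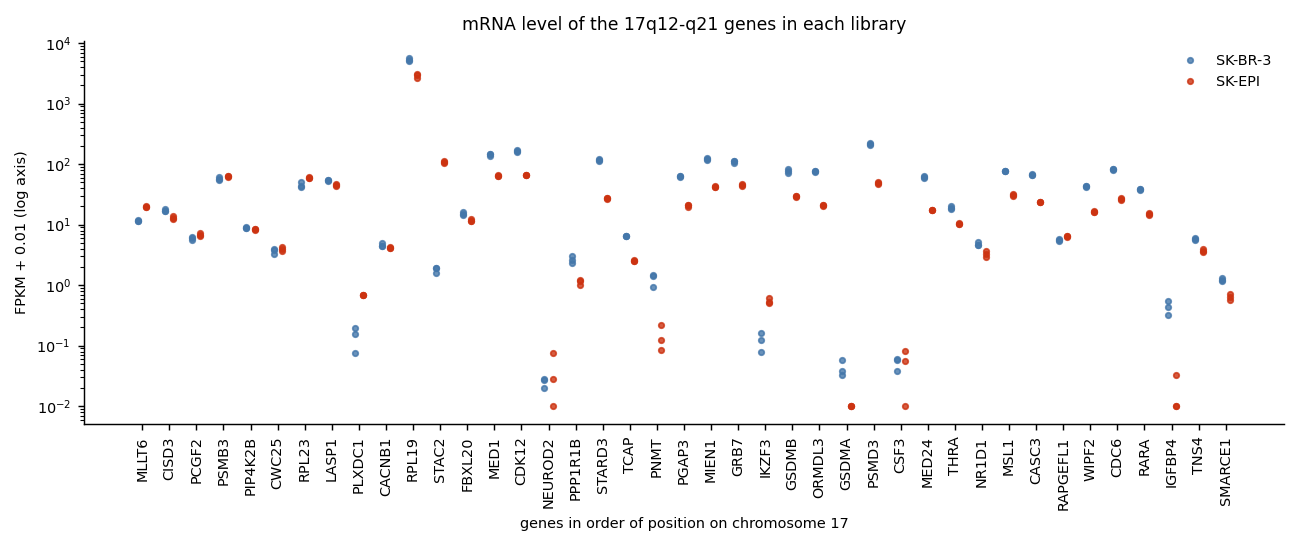
FPKM + 0.01 on a log axis of each of the 41 genes in order of position, with 1 point for each of the 3 SK-BR-3 and 3 SK-EPI libraries. RPL19 is the most abundant in both groups, the points of STARD3, ORMDL3, PSMD3 and MED24 lie furthest apart among the abundant downregulated genes, and STAC2 goes from under 2 FPKM in SK-BR-3 to over 100 FPKM in SK-EPI.

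The centromere-side stretch behaved differently. MLLT6, known as a fusion partner of KMT2A in leukaemia, was upregulated from 11.4 to 11.7 FPKM in SK-BR-3 to 19.5 to 20.3 FPKM in SK-EPI, a log2 fold change of 0.73 (SE 0.033). RPL23, a protein of the large ribosomal subunit, rose by 0.39, and PLXDC1, a plexin-domain membrane protein, went from 0.0657 to 0.183 FPKM to 0.668 to 0.687 FPKM. LASP1, an actin-binding LIM and SH3 protein, fell by 0.25 on the log2 scale, and CISD3, an iron-sulfur protein of mitochondria, by 0.37. PCGF2, a Polycomb ring finger protein, and PSMB3, a subunit of the proteasome core, were upregulated by 0.16 and 0.13, and the ranges of PSMB3 overlapped. The calls of PCGF2 and PSMB3 were lost in several alternatives, with limma adjusted p-values up to 0.114 and 0.117. CISD3 and PCGF2 share 1148 exonic bases on opposite strands, 43.1% and 32.7% of their exons. PIP4K2B, a phosphoinositide kinase, CWC25, a splicing factor, and CACNB1, a calcium channel subunit, differed by -0.07, 0.09 and -0.12 on the log2 scale and did not pass the test.

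RPL19 and STAC2 are neighbours on the list and moved in opposite directions. RPL19, a protein of the large ribosomal subunit, had 5652, 5024 and 5175 FPKM in SK-BR-3 and 2691, 2979 and 3120 FPKM in SK-EPI, a log2 fold change of -0.85 (SE 0.11, limma adjusted p = 2.3e-04). STAC2, an adaptor of voltage-gated calcium channels, had 1.93, 1.60 and 1.91 FPKM in SK-BR-3 and 103, 108 and 111 FPKM in SK-EPI. It was 59.1-fold higher in SK-EPI, with a log2 fold change of 5.27 (SE 0.055, limma adjusted p = 2.2e-10). Among the listed genes STAC2 alone rose by at least 1 on the log2(FPKM + 1) scale. With a pseudocount of 0.1, PLXDC1 and IKZF3, both under 1 FPKM, rose by 1.78 and 1.61. For RPL19 and RPL23 the genome also holds closely similar pseudogenes, and the treatment of reads with several positions is not given in the sources used here. Because of RPL19, the FPKM of the 41 genes summed to 7012 ± 335 (SD, n = 3) in SK-BR-3 and 3800 ± 235 in SK-EPI, while without it the sums were 1728 ± 21.9 and 869.5 ± 16.8.

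The unequal falls can be read from ratios of neighbouring genes within each library. The ratio of STARD3 to GRB7 was 1.02 to 1.05 in SK-BR-3 and 0.575 to 0.627 in SK-EPI. That of ORMDL3 to GSDMB was 0.955 to 1.06 in SK-BR-3 and 0.703 to 0.721 in SK-EPI, and that of MED24 to THRA was 2.89 to 3.36 and 1.64 to 1.71. Between SK-EPI and SK-BR-3 the fall was thus not by a common factor for these neighbours. The ratio of ORMDL3 to GSDMB was not low in the transfected SK-EPI cells. There it was 1.18 to 1.19 in SK-EPI-siNC and 1.33 to 1.44 in SK-EPI-siBCRP, above that in SK-BR-3. That of MED24 to THRA was 1.59 to 1.70 and 1.49 to 1.53 in these groups, and that of STARD3 to GRB7, given below, also stayed under that in SK-BR-3. The ratio of WIPF2 to RAPGEFL1 went from 7.26 to 8.36 down to 2.46 to 2.59. These pairs were picked after their values had been seen and no test was made on them.

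The genes of the interval that are not on the list were few among the tested ones. Of 60 such genes, ERBB2 aside, 9 were tested, and 5 were downregulated and 1 upregulated in SK-EPI compared with SK-BR-3. TOP2A, the topoisomerase that anthracyclines such as epirubicin poison, lies between RARA and IGFBP4 and had 147, 159 and 161 FPKM in SK-BR-3 and 74.7, 70.8 and 72.4 FPKM in SK-EPI, a log2 fold change of -1.09 (SE 0.044). AC005288.1, an antisense gene whose span runs into the ends of FBXL20 and MED1 on the opposite strand without sharing exonic bases with them, went from 160 to 174 FPKM to 70.6 to 72.5 FPKM, a log2 fold change of -1.21, and how reads of the opposite strand were counted there is likewise not given. AC009283.1, a long non-coding RNA near CDK12, fell by 0.87 on the log2 scale, and AC080112.1, an antisense transcript near RARA, rose by 1.15 from 0.602 to 2.57 FPKM.

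Along the whole chromosome, 42 windows of 1 Mb counted from GRB7 held at least 10 tested genes, and the middle value of their median log2 fold changes was 0.04. The window next to GRB7 on the centromere side had the lowest median, -0.82, with 14 of 22 genes downregulated. The window on the other side had -0.73, with 19 of 24 downregulated. Most of the listed genes lie in these windows, and neither they nor ERBB2 were removed. These medians therefore largely restate the values of the listed genes and are no separate observation. A window 28 to 29 Mb further along the chromosome had -0.74, with 13 of 16 genes downregulated, so low medians were not confined to the surroundings of GRB7. The windows beyond the pair around GRB7 had medians of 0.35 on the centromere side and -0.05 on the other, and the next one on that other side had -0.31 with 19 of 36 genes downregulated.

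**Figure D3:**
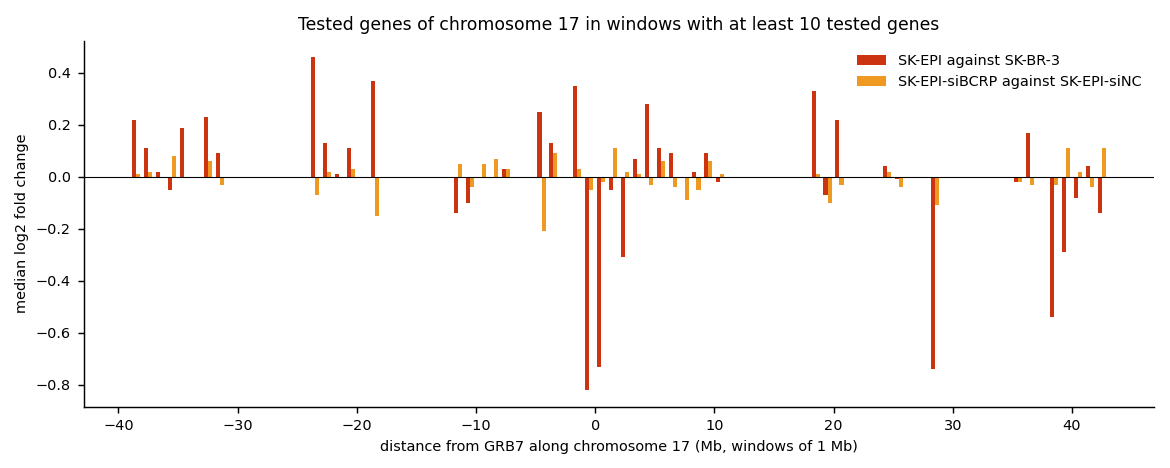
Median log2 fold change of tested genes in windows of 1 Mb along chromosome 17, by distance in Mb from GRB7, for SK-EPI against SK-BR-3 and for SK-EPI-siBCRP against SK-EPI-siNC, in windows with at least 10 tested genes. The pair of windows around GRB7 lies at -0.82 and -0.73 and a distant window at -0.74 in the former comparison, while around GRB7 the siRNA comparison lies at -0.05 and -0.02. The listed genes and ERBB2 were not removed from the windows.

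Several genes of the region encode subunits of complexes whose other subunits are encoded elsewhere, and the levels of those partners are set beside them here. Of 30 other Mediator genes 10 were upregulated and 10 downregulated in SK-EPI, against 37.9% and 37.0% of all tested genes, with a median log2 fold change of 0.01 and a range from -0.71 (CDK8) to 0.73 (MED20). The level of MED1 was 21.02 to 22.03 times the median of these partners in SK-BR-3 and 9.80 to 10.6 times in SK-EPI, and MED24 went from 8.94 to 9.42 times down to 2.65 to 2.82 times. MED1 still ranked 1 of 32 Mediator genes by mean level in SK-EPI, and MED24 went from rank 2 to rank 3. Of 29 other proteasome genes 25 were downregulated, as was PSMD3, and 3 upregulated, with a median of -0.54. The largest falls among them were those of PSMC1 (-1.32) and PSMA5 (-1.05). PSMD3 was 5.52 to 6.11 times the median of its partners in SK-BR-3 and 2.10 to 2.19 times in SK-EPI, and moved from rank 1 to rank 7 of 31, while PSMB3 moved from rank 11 to rank 3.

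Among the other protein genes of the large ribosomal subunit more were upregulated than downregulated. Of 41 such genes 27 were upregulated, 3 downregulated and 11 not called, with a median of 0.26, from 1.29 for RPL36 down to -1.12 for RPL7, a lower value than that of RPL19. RPL19 had 34.2 to 39.6 times the median level of its partners in SK-BR-3 and 18.8 to 19.8 times in SK-EPI, where it still ranked 1 of 43. RPL23 had 0.288 to 0.353 times that median in SK-BR-3 and 0.384 to 0.409 times in SK-EPI.

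In the smaller lists the ratio was lower in SK-EPI for CDK12, MSL1, CASC3, ORMDL3, CDC6 and RARA, which are described here, and overlapped for PCGF2. It was also lower for THRA, NR1D1 and SMARCE1, for GSDMB, whose partners had a median under 1 FPKM, and for IGFBP4 and GSDMA, which had few reads. CDK12 was 36.1 to 36.9 times the mean level of CDK13 and CCNK in SK-BR-3 and 19.3 to 20.2 times in SK-EPI. MSL1 went from 12.5 to 13.1 times the median of MSL2, MSL3 and KAT8 down to 3.32 to 3.91 times, and MSL2 rose by 0.76 on the log2 scale. CASC3 went from 3.84 to 4.40 times the median of 4 other exon junction genes to 1.62 to 1.70 times. ORMDL3 went from 6.39 to 6.97 times the median of its 7 partners to 2.56 to 2.92 times, and among these partners SPTSSB, a small subunit of serine palmitoyltransferase, fell by 3.47 while its paralogue SPTSSA rose by 1.63. CDC6 was 4.66 to 5.28 times the median of 13 other pre-replication genes in SK-BR-3 and 2.11 to 2.23 times in SK-EPI, where MCM2 fell by 1.10 and CDT1 rose by 0.47. RARA was 4.27 to 4.74 times the median of 7 other receptors of its list in SK-BR-3 and 1.44 to 1.54 times in SK-EPI, where RXRA fell by 0.45 and THRB rose by 0.34. The 3 values of each group did not overlap for the 6 ratios from CDK12 to RARA described here. PCGF2 was 1.19 to 1.49 times the median of 7 other Polycomb ring finger genes in SK-BR-3 and 1.04 to 1.20 times in SK-EPI, with rank 3 of 8 in both. Since 3 libraries against 3 cannot give an exact two-sided permutation p-value under 0.1, the ratios are given as a description.

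**Figure D4:**
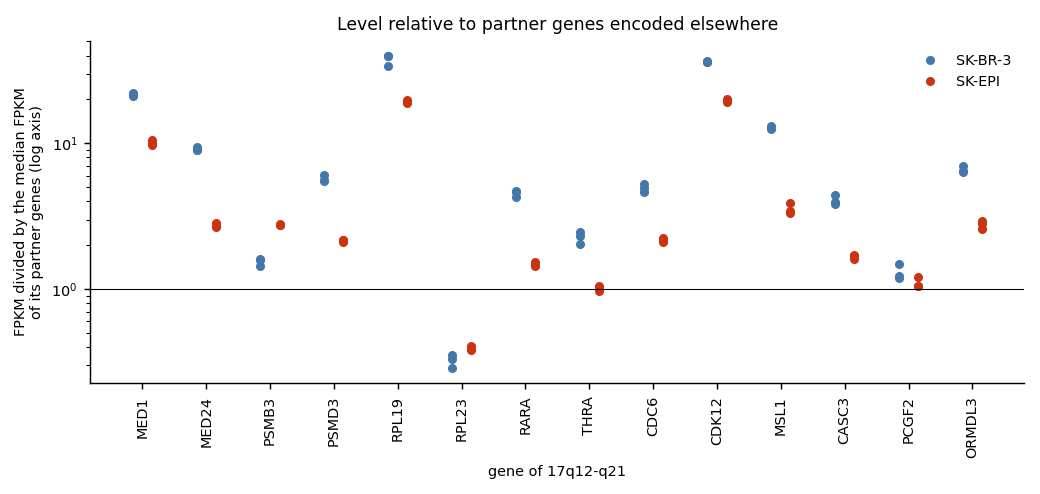
FPKM of 14 genes of the region divided by the median FPKM of the other genes of their complex or family, on a log axis, with 1 point per library of SK-BR-3 and SK-EPI and a line at a ratio of 1. The ratios of MED1, MED24, PSMD3, RPL19, RARA, THRA, CDC6, CDK12, MSL1, CASC3 and ORMDL3 are lower in all SK-EPI libraries, those of PSMB3 and RPL23 are higher, and those of PCGF2 meet near 1.2.

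The promoters of RPL19, STARD3, PSMD3 and RAPGEFL1 are shown as examples picked after the values had been seen. STAC2, the gene with the largest change, had no promoter available. RPL19 was the most abundant, STARD3 and PSMD3 lost the largest share of a high level, and RAPGEFL1 was upregulated among downregulated neighbours. They are RefSeq promoters of GRCh38.p14, 250 bases before to 50 bases after the start, all on the plus strand, at chr17:39200033-39200332, chr17:39636894-39637193, chr17:39980557-39980856 and chr17:40177220-40177519. Capitals mark matches on either strand to the GC box, spelled GGGCGG, to the CCAAT box, spelled by its name, to the E-box, spelled CACGTG, and to the TATA box, spelled TATAAA, with adjoining or overlapping matches run together.
RPL19: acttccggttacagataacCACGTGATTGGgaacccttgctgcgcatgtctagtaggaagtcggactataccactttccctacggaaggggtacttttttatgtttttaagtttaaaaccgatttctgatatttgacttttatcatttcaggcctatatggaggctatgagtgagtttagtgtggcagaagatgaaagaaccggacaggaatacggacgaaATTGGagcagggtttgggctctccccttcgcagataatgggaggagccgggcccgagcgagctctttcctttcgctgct
STARD3: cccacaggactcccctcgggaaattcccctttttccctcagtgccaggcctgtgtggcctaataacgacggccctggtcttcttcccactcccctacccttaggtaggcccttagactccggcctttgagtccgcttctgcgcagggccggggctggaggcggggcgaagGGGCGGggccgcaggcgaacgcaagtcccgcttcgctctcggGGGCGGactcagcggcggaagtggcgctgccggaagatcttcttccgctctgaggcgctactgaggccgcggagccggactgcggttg
PSMD3: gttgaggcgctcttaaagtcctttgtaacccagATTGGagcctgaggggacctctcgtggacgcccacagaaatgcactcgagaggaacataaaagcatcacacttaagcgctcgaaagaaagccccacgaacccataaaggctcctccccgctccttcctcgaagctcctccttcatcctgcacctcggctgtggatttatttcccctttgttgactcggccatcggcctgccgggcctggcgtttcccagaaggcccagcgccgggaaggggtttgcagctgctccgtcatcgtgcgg
RAPGEFL1: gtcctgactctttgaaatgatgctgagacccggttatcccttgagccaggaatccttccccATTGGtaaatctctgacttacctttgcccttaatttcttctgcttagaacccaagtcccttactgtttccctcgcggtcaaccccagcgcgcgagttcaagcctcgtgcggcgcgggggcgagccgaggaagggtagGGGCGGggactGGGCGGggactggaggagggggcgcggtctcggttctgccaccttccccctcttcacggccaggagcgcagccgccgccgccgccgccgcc
The STARD3 promoter holds 2 GC boxes and the RAPGEFL1 promoter 2 GC boxes and 1 CCAAT box, while the PSMD3 promoter holds a CCAAT box alone and the RPL19 promoter 2 CCAAT boxes and 1 E-box. Of the 41 genes 29 had a promoter in the table, and 20 of these held a GC box, against 44.6% of all 27305 promoters of this length. A CCAAT box was found in 12 of the 29, against 35.7% of all, an E-box in 4, against 7.43%, and a TATA box in that of IGFBP4 alone, against 3264 of the 27305. The 29 promoters had a median of 24.0 CpG dinucleotides, against 14.0 for all. GC boxes were found in strongly and in weakly downregulated genes, such as STARD3 and SMARCE1, and so were CCAAT boxes, in PSMD3 and FBXL20. A match is only a run of letters and not a site known to be bound.

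In the comparison of SK-EPI-siBCRP with SK-EPI-siNC the siRNA lowered its own target, since ABCG2 had 32.5, 32.7 and 33.7 FPKM in the control libraries and 2.84, 3.47 and 2.91 FPKM in the siBCRP libraries, 9.33% of the control mean. The genes of the region moved little and in both directions. Of 36 tested genes 10 were upregulated and 10 downregulated, against 19.4% and 18.7% of all tested genes, and the median log2 fold change was -0.02. With equal sums over genes the split was 7 up and 13 down, and with equal sums without the mitochondrial chromosome or with voom on recovered reads it was 10 up and 13 down. None reached a change of 1 on the log2 scale, against 0.0675% of all tested genes upward and 0.344% downward. The ranges did not overlap for 12 genes that were lower and 11 that were higher, against 25.4% and 25.5% of all tested genes. PNMT and IGFBP4 joined the untested genes.

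The siRNA used for these libraries was the one the study numbers 1. Its strands are shown because the largest fall in the region, that of PIP4K2B, came in a gene whose mRNA holds letters complementary to bases 2 to 8 of the lower strand. These bases, the seed, are in capitals.
siBCRP 1 upper strand: gggauacuuugaaucagcugguuau
siBCRP 1 lower strand: aUAACCAGcugauucaaaguauccc
PIP4K2B site: agtgtaacacattcttaCTGGTTAa
PIP4K2B had 7.953, 8.201 and 7.344 FPKM in SK-EPI-siNC and 3.53, 3.88 and 4.05 FPKM in SK-EPI-siBCRP. Its mean fell to 48.7% of the control, a log2 fold change of -0.87 (SE 0.058, limma adjusted p = 4.3e-05), and the groups did not overlap. The site, in capitals, lies in the 3′ UTR in exon 10 of 10 of ENST00000619039.4, at chr17:38767582-38767588 on the minus strand, and is printed as in the mRNA. The same 7 letters occur in transcripts of 10 of the 36 tested genes of the region and of 19.1% of all 16298 tested genes. Of these 10 genes 3 (MLLT6, PIP4K2B and CDC6) were downregulated, THRA was upregulated and 6 were not called. The letters complementary to the seed of the upper strand occur in 6 of the 36 genes and in 14.5% of all tested genes. Of these 6 genes PIP4K2B and MLLT6, which also match the lower strand, were downregulated, MIEN1 and WIPF2 were upregulated and 2 were not called. Of the 36 tested genes, with or without such letters, 27.8% were downregulated and 27.8% upregulated. Over all tested genes these shares were 18.7% and 19.4%, and the shares among all genes with a match were not computed. No test was made on these counts, and whether the siRNA acted at any of these sites was not tested.

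Genes of the core moved in opposite directions within a short distance after BCRP silencing. GRB7 had 62.9, 62.5 and 62.1 FPKM in SK-EPI-siNC and 45.6, 43.6 and 43.7 FPKM in SK-EPI-siBCRP. This is 70.9% of the control mean, a log2 fold change of -0.49 (SE 0.024, limma adjusted p = 1.2e-05). PGAP3 had 17.46, 17.12 and 16.99 FPKM in the control and 12.8, 11.7 and 11.0 FPKM after silencing, a log2 fold change of -0.51 (SE 0.050). MIEN1, which lies between them, was upregulated from 30.5, 32.5 and 33.2 FPKM to 37.0, 39.6 and 37.8 FPKM, a log2 fold change of 0.24. TCAP also rose, from 1.55, 1.66 and 1.29 FPKM to 2.44, 2.62 and 2.19 FPKM, a log2 fold change of 0.45. STARD3 had 24.0 to 25.2 FPKM in the control and 23.4 to 26.0 FPKM after silencing, with overlapping ranges and a log2 fold change of -0.02 (SE 0.043) that did not pass the test. The ratio of STARD3 to GRB7 was therefore 0.386 to 0.403 in SK-EPI-siNC and 0.536 to 0.570 in SK-EPI-siBCRP.

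Outside the core the largest rise was that of NR1D1, from 3.59, 4.04 and 4.16 FPKM to 6.06, 5.66 and 5.41 FPKM, with a log2 fold change of 0.45 (SE 0.062, limma adjusted p = 0.00129). THRA, with which it overlaps, rose by 0.20, CACNB1 by 0.31, PSMB3 by 0.21 and RAPGEFL1 by 0.16. PSMD3, MED24 and WIPF2 were upregulated by 0.10, 0.09 and 0.10, small differences whose calls were each lost without certain libraries, as was that of RPL23, with limma adjusted p-values up to 0.0793. The downregulated genes were PPP1R1B with -0.25, RARA with -0.23, MLLT6 with -0.19, MSL1 with -0.18, GSDMB with -0.17, CDC6 with -0.17 and RPL23 with -0.11. With no filter on low values the calls of PPP1R1B, PSMB3 and RPL23 were lost, with limma adjusted p-values of 0.0752, 0.0573 and 0.0567, and the log2 fold change of PPP1R1B was -0.43 with a pseudocount of 0.1 and -0.47 with voom. CDK12 and MED1 differed by -0.04 and -0.07 and did not pass the test, although MED1 was called in several alternatives, as were STAC2 and FBXL20. STAC2 was not called here either and had 86.0 to 89.0 FPKM in the control and 82.3 to 86.4 FPKM after silencing.

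**Figure D5:**
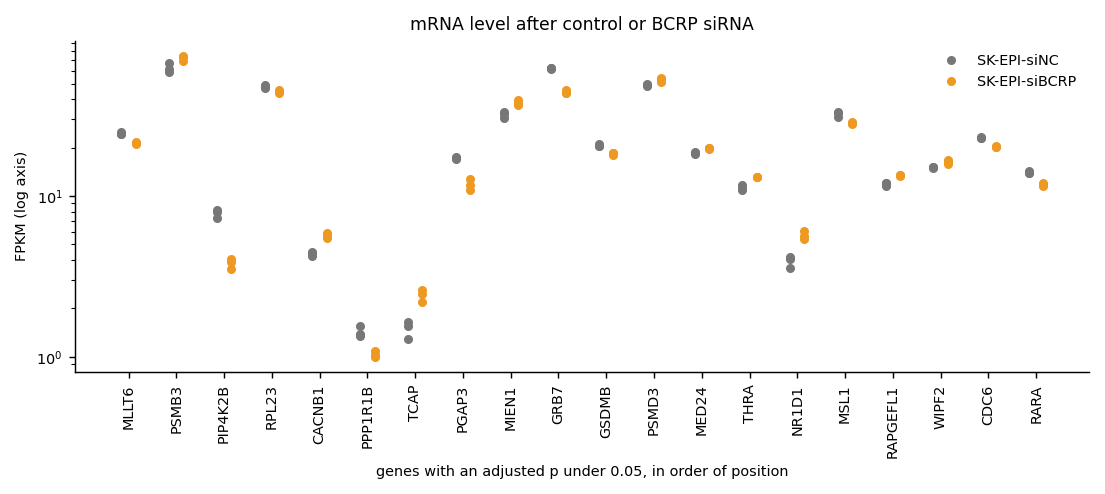
FPKM on a log axis of the 20 genes of the region with an adjusted p-value under 0.05 between SK-EPI-siBCRP and SK-EPI-siNC, in order of position, with 1 point per library. PIP4K2B, PGAP3, GRB7 and PPP1R1B show the clearest falls, TCAP, NR1D1 and CACNB1 the clearest rises, and the other shifts are small against the level of the gene.

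Partner genes of these complexes moved in both directions. Of 30 other Mediator genes 2 were upregulated and 7 downregulated after BCRP silencing, against 19.4% and 18.7% of all tested genes, with a median of 0.01 and with CDK19 at -0.82 and MED20 at -0.54. Of 29 other proteasome genes 10 were upregulated and 4 downregulated, with a median of 0.07 and with PSMB2 at -1.05. Of 13 other pre-replication genes 6 were upregulated and none downregulated, with MCM7 at 0.26, while CDC6 was downregulated. CDC6 was 2.01 to 2.21 times the median of these partners in SK-EPI-siNC and 1.54 to 1.63 times in SK-EPI-siBCRP.

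The 2 tables may have been normalized separately, so levels of SK-EPI without siRNA and of SK-EPI-siNC are only set side by side. The listed genes summed to 869.5 FPKM without RPL19 in SK-EPI, and to 820.4 in SK-EPI-siNC and 797.8 in SK-EPI-siBCRP, against 1728 in SK-BR-3. STARD3 had means of 27.4 FPKM in SK-EPI and 24.8 FPKM in SK-EPI-siNC, PSMD3 49.0 and 49.0, and MED24 17.5 and 18.5. GRB7 had 45.5 and 62.5 FPKM, RAPGEFL1 6.47 and 11.9, and GSDMB 29.2 and 20.8. All 3 of STARD3, PSMD3 and MED24 thus stood close to the same low level in both tables, whereas GRB7 and RAPGEFL1 were higher and GSDMB lower in SK-EPI-siNC, with no test across the tables.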

How the data were processed

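The authors sequenced poly-A selected RNA in 12 libraries, 3 in each of 4 groups taken from the labels. They deposited FPKM for 58735 genes in 2 tables, SK-BR-3 with SK-EPI and SK-EPI-siNC with SK-EPI-siBCRP. Per the labels, HISAT2 2.0.5, featureCounts 1.5.0-p3 and DESeq2 1.16.1 were among the tools and hg38 was the build, with no role or setting stated. The tables name no unit. It was inferred from the values, since FPKM multiplied by the merged exon length of GENCODE 29 gave whole reads within 0.05. Depth was 15830381 to 20545811 reads on genes per library.

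A gene was tested where 3 or more libraries held at least 10 of its reads, scaled to the median depth, and the libraries of the table together held at least 15. Within each table, limma 3.58.1 in R 4.3.3 (lmFit, eBayes with a trend) was fitted to log2(FPKM + 1) with the group alone, with Benjamini-Hochberg adjustment over all tested genes and a threshold of 0.05. The fit was also run on simulated reads with the same dispersion for every gene, as a check of the code. That run says nothing on the spread of the real libraries. Counts and medians of lists are descriptions without a set test. Motif and seed matches were searched as letters, in RefSeq promoters on both strands and in GENCODE 29 transcripts. Statements on reads cover counting error only. Alternatives covered the pseudocount, the filter, the scaling, a replicate block, leaving out each library and voom on recovered reads. Every listed gene could be named, ABCG2 as the check of the siRNA, up to 2 rises and 2 falls of each partner list and up to 3 of each among the other genes of the interval. The listed genes, the stretches and the partner lists were chosen with earlier results of these data known.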

Additional observations from a re-analysis of the deposited data

How the results depend on the processing

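Of the 38 genes tested between SK-EPI and SK-BR-3, 35 kept their direction and side of the threshold in every alternative that tested them, and of the 36 tested after BCRP silencing 19 did. With at least 1 FPKM in every library 32 and 33 of these genes were tested. With a further minimum of 1 on the absolute log2 scale, 1 gene was upregulated and 16 downregulated in SK-EPI, and 0 and 0 after silencing. The median log2 fold change in SK-EPI, -0.80, was -1.01 with a pseudocount of 0.1, -0.53 with no filter on low values, -0.97 with at least 1 FPKM in every library, -0.97 with voom on recovered reads and -0.85 to -0.74 when a library was left out. Over all genes, the split of calls in SK-EPI, 6002 up and 5852 down, became 3592 and 4439 with at least 1 FPKM in every library, and that after silencing, 3163 up and 3052 down, became 2681 and 3561 with equal sums over genes.

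Between SK-EPI and SK-BR-3 same-numbered libraries did not deviate together (correlations from -0.0485 to -0.00201), and 0 of 6 libraries correlated best with their own number. In the siRNA comparison the same-numbered correlations were small but all positive, from 0.00923 to 0.0551 with a mean of 0.0282. Those between other numbers had a mean of -0.0141, and 4 of 6 libraries correlated best with their own number. When the replicate number was added as a block, 7 genes of the region were upregulated and 27 downregulated in SK-EPI, without PCGF2, and 9 and 9 after silencing, without RPL23 and WIPF2.

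Directions that turned were those of genes that had not been called. PIP4K2B in SK-EPI had 0.01 with voom. After silencing, PCGF2 had -0.01 with equal sums over genes and -0.05 to 0.07 when a library was left out. In the same way CWC25 ranged from -0.11 to 0.02, PLXDC1 from -1.2e-05 to 0.07, CASC3 from -0.03 to 0.01, IKZF3 from -0.02 to 0.04, SMARCE1 from -0.05 to 0.01 and STARD3 from -0.07 to 0.01. The cause was not tested. After silencing the call of RPL23 was lost without SK-EPI-siNC replicate 1 and SK-EPI-siBCRP replicates 1 and 2, that of MED24 without replicate 2 of either group, that of PSMD3 without replicate 3 of either group and that of WIPF2 without every library except SK-EPI-siBCRP replicate 1 (adjusted p from 0.0534 to 0.0793). With equal sums over genes those of PSMD3, MED24 and WIPF2 were lost, and with no filter those of PPP1R1B, PSMB3 and RPL23. FBXL20, STAC2 and MED1 were each called with equal sums over genes, with and without the mitochondrial chromosome, and with voom (adjusted p = 0.00688, 0.0264 and 0.00476). FBXL20 was also called without SK-EPI-siNC replicate 1 (-0.14), STAC2 without SK-EPI-siBCRP replicate 1 (-0.08), MED1 without SK-EPI-siBCRP replicate 3 (-0.09) and with at least 1 FPKM in every library (-0.07), and LASP1 with median-of-ratios scaling (0.06). In SK-EPI the calls of PCGF2 and PSMB3 were lost with no filter and that of PSMB3 with median-of-ratios scaling, and the call of PCGF2 was lost without SK-BR-3 replicates 1 or 3 and SK-EPI replicates 1 or 3 and that of PSMB3 without SK-BR-3 replicates 1 or 3 and SK-EPI replicates 2 or 3. Depth limits the genes under 1 FPKM, among them PNMT, IGFBP4, PLXDC1 and IKZF3, whose log2 fold changes depend most on the pseudocount.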
